A study of Mus musculus with 12 samples.

Results

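The comparison set RNA of Ts1Cje cerebellum at P30 (postnatal day 30) against RNA of euploid cerebellum of the same stage. It took the 4 arrays labelled P30 out of 12 arrays in the series, which also covers P0 and P15. The euploid pool held RNA of 2 cerebella and the Ts1Cje pool RNA of 3, and each pool was hybridised to 2 arrays. Ts1Cje is a segmental trisomy of mouse chromosome 16, and euploid mice carry the usual 2 copies. The labels give no strain, sex or treatment. Of 8252 genes named on the array, the 5670 that passed the signal filter were described. Each genotype was 1 pool, so the arrays of a pool are technical replicates, no test between genotypes exists within P30, and all P30 differences are values of these pools.

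In the Ts1Cje line the distal part of chromosome 16 is translocated to chromosome 12 and is present in an extra copy, so the genes it holds are read from 3 templates rather than 2. The segment corresponds to part of human chromosome 21, and the mice are used as a model of Down syndrome, in which the cerebellum is small. By P30 the main steps of cerebellar development are over: granule cells have left the external layer, Purkinje cells have their adult shape and most axons that will be myelinated carry myelin. Cholesterol for this myelin is made within the brain, since the blood-brain barrier holds back the cholesterol of the blood. Glucocorticoids reach the brain from the adrenal gland, bind a nuclear receptor in neurons and glia, and switch on a set of target genes.

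Signals are MAS5 intensities, and differences are Ts1Cje minus euploid on the log2(signal + 4.6) scale, which understates the change of dim genes. The ± value is the standard error over hybridisations (n = 2 arrays of 1 pool per genotype), which leaves out the variation between animals. A gene is counted as higher or lower if it differed by at least 1.5-fold and both arrays of one pool lay above both arrays of the other. Of 7453 probe sets, 170 were higher (2.28%) and 159 lower (2.13%). By gene, 122 of 5670 were higher (2.15%) and 124 lower (2.19%). Without the fold limit, both Ts1Cje arrays lay above both euploid arrays for 1088 genes (19.2%) and below them for 1145 (20.2%). The median over all genes was -0.0056, and 2796 genes had a positive difference.

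Most of the counted probe sets were dim. The dimmest of 3 equal groups of probe sets held 207 of them (8.33% of that group), the middle group 76 (3.06%) and the brightest 46 (1.85%). Hybridisations of the same pool were at least 1.5-fold apart for 640 probe sets in the euploid pool (8.59%) and 671 in the Ts1Cje pool (9.0%). Arrays of the same pool had a Pearson r of 0.973 (euploid) and 0.972 (Ts1Cje) across probe sets, and arrays of opposite genotype 0.966 to 0.971. Across all probe sets the genotypes were about as alike as repeat hybridisations of 1 pool. Leaving out 1 array in turn gave 251 to 378 higher and 242 to 347 lower probe sets, since fewer arrays overlap less often.

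The Ts1Cje P30 arrays differed from the rest of the series in a sign of RNA integrity. The ratio of 3' to 5' signal of the actin control was 1.55 and 1.67 on them, against 1.37 and 1.24 on the euploid P30 arrays and 1.13 to 1.43 on the arrays of the other stages. For pyruvate carboxylase the ratio was 3.03 and 3.35 against 1.98 and 2.64, and 1.86 to 2.81 elsewhere. The Gapdh control did not follow, at 0.96 and 0.88 against 0.94 and 0.89. The part of these differences in the results that follow was not tested.

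**Figure D1:**
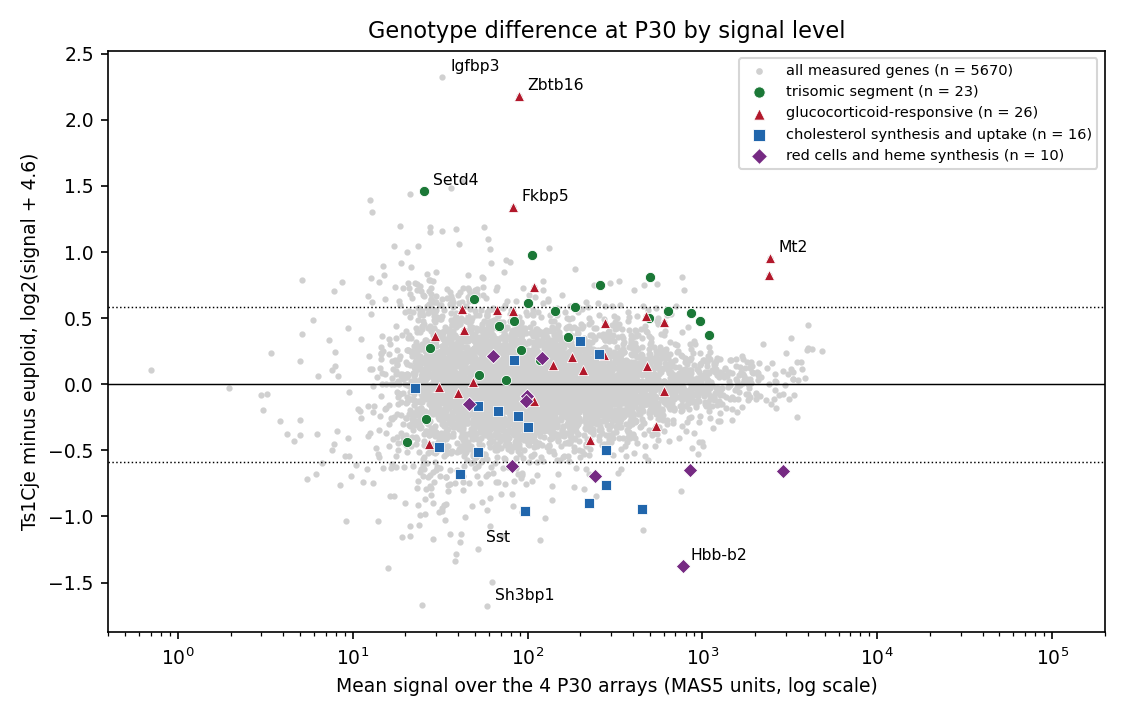
Difference between genotypes at P30 (Ts1Cje minus euploid, log2(signal + 4.6)) of each measured gene against its mean signal over the 4 arrays (MAS5 units, log scale). Grey points are all 5670 genes, coloured symbols are the members of 4 gene lists, and dotted lines mark 1.5-fold. The spread widens toward low signal, and the cholesterol and red cell lists lie mostly below 0.

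The genes of the trisomic segment were higher in the Ts1Cje pool, which also checks the genotype labels. The list names 68 genes, of which the array covered 36 and the filter kept 23. The Ts1Cje arrays lay above the euploid arrays for 18 of the 23 (78.3%, against 19.2% of all genes) and below for 1. The list's median was 0.48 (0.43 to 0.52 over the 4 pairs of arrays), and log2 of 1.5, the ratio of 3 copies to 2, is 0.585. The count with the fold limit was 7 higher (30.4%, against 2.15% of all genes) and 0 lower.

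Son and Paxbp1, which both act in RNA processing, were among the 7. Son read 383.8 and 337.8 on the euploid arrays and 651.3 and 618.9 on the Ts1Cje arrays, a difference of 0.81 ± 0.098. Paxbp1 read 195.1 and 189.2 against 338.8 and 313.4, a difference of 0.75 ± 0.060. The arrays of both genotypes stood well apart for both genes, although a dimmer probe set of Son gave 0.21. Gart, which makes purines, had 77.1 and 79.1 against 121.4 and 123.3, and its 0.62 ± 0.021 was among the most even differences of the segment. Itsn1, a scaffold of endocytosis, had 169.9 and 128.0 against 252.3 and 198.4 (0.59 ± 0.26). C2cd2 read 35.5 and 38.8 against 71.6 and 51.3 (0.65 ± 0.23).

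Setd4, a SET-domain methyltransferase, had the widest difference of the segment at 1.46 ± 0.46. Its signals were dim, at 17.1 and 7.0 on the euploid arrays and 37.6 and 40.7 on the Ts1Cje arrays, so the size of its ratio is uncertain.

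Several kinase, ubiquitin, chromatin and mitochondrial genes were higher by somewhat less than 1.5-fold. Dyrk1a, a kinase much studied in Down syndrome, read 482.2 and 551.2 against 694.5 and 827.0 (0.55 ± 0.16, with 0.46 in another probe set). Ttc3, a ubiquitin ligase, read 679.4 and 953.1 against 1065.5 and 1179.1 (0.48 ± 0.25). Atp5o, part of the mitochondrial ATP synthase, had 724.2 and 683.3 against 975.5 and 1078.4 (0.54 ± 0.083). In all of these the Ts1Cje arrays lay above the euploid arrays. Vps26c (0.55 ± 0.15), which takes part in endosomal sorting, Tmem50b (0.50 ± 0.073), Psmg1 (0.44 ± 0.12), a chaperone of proteasome assembly, Hmgn1 (0.37 ± 0.10), a nucleosome-binding protein, and Ets2 (0.36 ± 0.020), a transcription factor, followed without overlap. Cbr1, a carbonyl reductase, gave 0.48 ± 0.39 with overlapping arrays.

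Rcan1, an inhibitor of the phosphatase calcineurin, had one of the smaller positive differences of the segment at P30. It read 107.3 and 112.2 on the euploid arrays and 122.2 and 128.3 on the Ts1Cje arrays, a difference of 0.18 ± 0.046. At P0 it had 0.55 and at P15 0.79. The limma fit that set P30 against the earlier stages, described further on, called no gene of the segment, and the smallest unadjusted p of the 23 was 0.118. Of the 7 measured genes of the calcineurin and NFAT list, none was counted in either direction (median 0.069).

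The segment holds 4 receptor chains for interferons and interleukin 10, and they differed among themselves. Ifnar1, which binds type I interferons, read 71.7 and 67.8 against 153.5 and 131.6, a difference of 0.98 ± 0.11, and no arrays overlapped. Il10rb gave 0.26 ± 0.17 without overlap, and Ifngr2 0.073 ± 0.30 with overlap. Ifnar2, the partner chain of Ifnar1, gave -0.26 ± 0.25 with overlap on a dim signal, while its other probe set gave 0.55. No direction can be read for Ifnar2 from these values.

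Chaf1b, a subunit of the chromatin assembly factor of dividing cells, was the one gene of the segment whose Ts1Cje arrays lay below the euploid arrays. It read 23.2 and 25.1 against 19.4 and 14.2 (-0.44 ± 0.18), close to the filter. Smim11 (0.28 ± 0.21) did not overlap and Sh3bgr (0.031 ± 0.10) did. A further 13 genes of the segment, on 15 probe sets, were below the filter with signals of 0.3 to 30.9, among them the potassium channels Kcnj6 and Kcnj15 and the transcription factors Runx1 and Sim2. No probe set stood for the other 32.

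**Figure D2:**
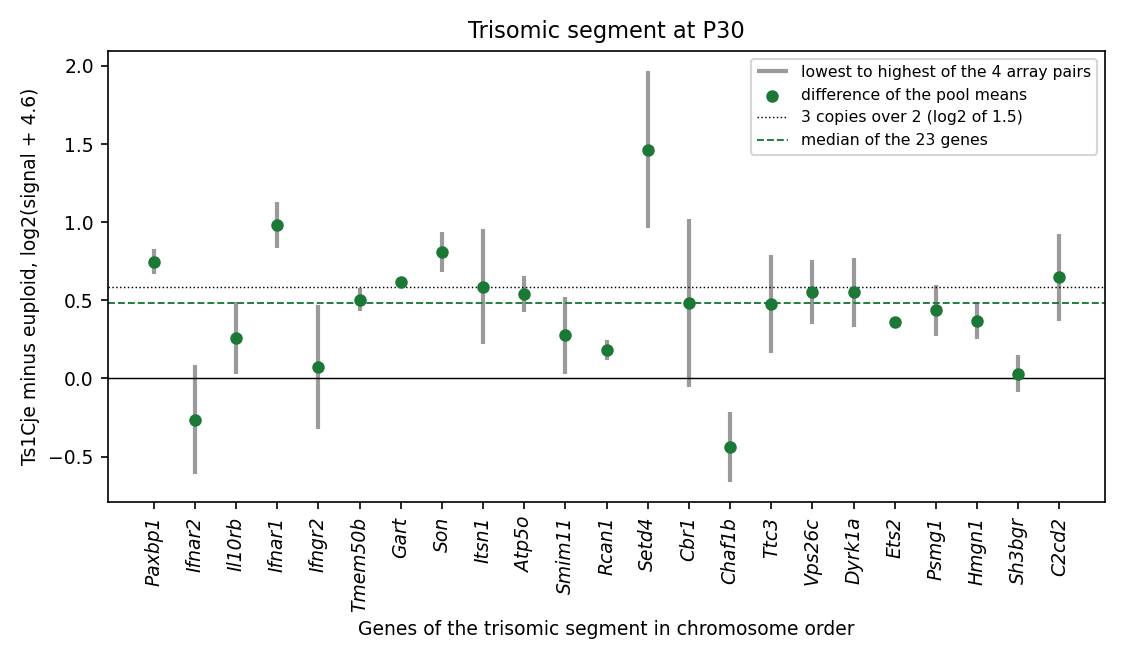
Difference between genotypes at P30 (Ts1Cje minus euploid, log2(signal + 4.6)) of the 23 measured genes of the trisomic segment in chromosome order. Points are differences of the pool means, grey bars span the 4 pairs of arrays, the dashed line is the median of 0.48 and the dotted line the 0.585 of 3 copies over 2. Of the 23 points 21 lie above 0, and the bars of Ifnar2, Ifngr2, Cbr1 and Sh3bgr cross it.

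The rest of chromosome 16 showed no such shift. Of the 147 measured genes proximal of Sod1, 51.7% had a positive difference, with 2 higher and 1 lower, and their median was 0.018. On all other chromosomes together, 49.1% of 5494 genes were positive. The list of 12 genes just outside the segment had a median of -0.066 and no counted gene. Sod1, the superoxide dismutase gene in which the translocation arose, read 442.9 and 352.3 against 527.0 and 484.7 (0.35 ± 0.17). App, the amyloid precursor gene proximal of the break, had 4163.7 and 3519.8 against 4452.3 and 4758.4 (0.27 ± 0.13). Both lay above the euploid arrays, below most genes of the segment. On chromosome 12, where the segment is attached, Cdca7l was the 1 measured gene of the list near the break. It read 27.0 and 23.7 against 33.3 and 53.7 at P30 (0.65 ± 0.32), and had 1.01 at P0 and 1.15 at P15.

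Genes that glucocorticoids are known to induce were higher in the Ts1Cje pool at P30. Of 34 listed genes 26 were measured, 19 had a positive difference and 16 lay above without overlap (61.5%, against 19.2% of all genes). With the fold limit 5 were higher (19.2%, against 2.15%) and 0 lower. This list, like the others, was chosen with earlier results of these data known, so such shares are no independent support. The median was 0.29 at P30 (0.21 to 0.32 over the pairs of arrays), 0.063 at P0 and -0.015 at P15.

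Zbtb16, a zinc-finger transcription factor, stood out most. It read 24.4 and 34.6 on the euploid arrays and 156.2 and 140.8 on the Ts1Cje arrays, a difference of 2.18 ± 0.23. Fkbp5, a cochaperone that damps the glucocorticoid receptor, had 52.6 and 37.5 against 116.4 and 122.8 (1.34 ± 0.22). Both Ts1Cje arrays of each gene were more than 1.5 times the higher euploid array. The metallothioneins, small proteins that bind zinc and copper, were among the brightest genes counted. Mt2 read 1709.9 and 1599.4 against 3598.4 and 2851.8 (0.95 ± 0.17). Mt1 read 1926.6 and 1546.9 against 3101.1 and 3020.0 (0.82 ± 0.16). Their bright signals left the arrays of the genotypes far apart. Mt3, the form of neurons and astrocytes, overlapped (-0.12 ± 0.18). Per1, a clock gene that glucocorticoids also induce, had 78.1 and 81.6 against 148.0 and 125.5 (0.74 ± 0.12).

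Mertk, a receptor of phagocytosis, was higher without overlap and just short of the fold limit (0.57 ± 0.12). Htra1, a secreted protease and the brightest member after the metallothioneins, overlapped (-0.048 ± 0.080). The 3 members below without overlap were Ddit4 (-0.42 ± 0.19), Gpd1 (-0.32 ± 0.14) and Hif3a (-0.46 ± 0.27). Like other genes named here to break down a small count, they were picked after their values were seen. The direction of the list was therefore not shared by every member.

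The genes of cholesterol synthesis and uptake were lower in the Ts1Cje pool. Of 27 listed genes 16 were measured, and 13 had a negative difference. The Ts1Cje arrays lay below the euploid arrays for 9 (56.2%, against 20.2% of all genes) and above for 3. With the fold limit 5 were lower (31.2%, against 2.19%) and 0 higher. These shares too come from a list chosen with earlier results of these data known. The median was -0.40 at P30 (-0.51 to -0.31 over the pairs of arrays), 0.062 at P0 and 0.094 at P15.

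The 5 lower genes cover early and late steps of the pathway. Hmgcs1 makes HMG-CoA, the substrate of the rate-limiting step, and read 479.5 and 717.4 on the euploid arrays and 268.9 and 341.1 on the Ts1Cje arrays (-0.94 ± 0.33). Idi1, an isomerase of isoprenoid synthesis, had 344.6 and 245.1 against 155.4 and 151.9 (-0.90 ± 0.24). Neither gene overlapped. Sqle, the epoxidase that commits squalene to sterols, read 351.6 and 350.4 against 172.3 and 243.2 (-0.76 ± 0.24). Cyp51, the lanosterol demethylase, read 49.9 and 52.7 against 31.5 and 29.0 (-0.68 ± 0.063). Msmo1, a sterol methyl oxidase that acts after Cyp51, had 144.4 and 115.0 against 60.5 and 67.7 (-0.96 ± 0.18). In each of the 5 the higher Ts1Cje array lay below the lower euploid array. Fdps (-0.50 ± 0.13, with -0.28 in another probe set) and Ebp (-0.51 ± 0.22) were lower without overlap and short of the fold limit.

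The 3 members above without overlap were Fdft1, the squalene synthase (0.33 ± 0.21), Tm7sf2, a sterol reductase (0.18 ± 0.046), and Srebf1, a transcription factor of lipid synthesis (0.23 ± 0.032). Fatty acid synthesis, which Srebf1 also controls, did not follow the cholesterol genes: its 11 measured genes had a median of 0.016, and none was counted.

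Promoter sequences are shown for the 4 lower cholesterol genes in the RefSeq promoter table (GRCm38.p6) and for both metallothioneins, since the members of each set differed in the same direction. They give the 250 bases before the annotated start, 5' to 3' on the strand of the gene. In the cholesterol genes, capitals mark each CCAAT box, the site of the factor NF-Y, as CCAAT or on the other strand as ATTGG. Hmgcs1 lies at chr13:119690101-119690350 on the plus strand, Idi1 at chr13:8885356-8885605 on the plus strand, Cyp51 at chr5:4104698-4104947 on the minus strand and Msmo1 at chr8:64733579-64733828 on the minus strand.
Hmgcs1: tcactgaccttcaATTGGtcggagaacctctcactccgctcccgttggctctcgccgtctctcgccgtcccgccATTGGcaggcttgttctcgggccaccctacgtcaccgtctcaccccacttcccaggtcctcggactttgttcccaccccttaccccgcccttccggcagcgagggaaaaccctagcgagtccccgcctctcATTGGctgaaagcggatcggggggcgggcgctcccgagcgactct
Idi1: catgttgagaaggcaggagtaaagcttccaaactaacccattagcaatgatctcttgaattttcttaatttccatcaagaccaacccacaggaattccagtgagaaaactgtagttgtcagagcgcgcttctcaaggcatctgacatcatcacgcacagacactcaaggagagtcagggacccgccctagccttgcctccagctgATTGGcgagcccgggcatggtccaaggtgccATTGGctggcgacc
Cyp51: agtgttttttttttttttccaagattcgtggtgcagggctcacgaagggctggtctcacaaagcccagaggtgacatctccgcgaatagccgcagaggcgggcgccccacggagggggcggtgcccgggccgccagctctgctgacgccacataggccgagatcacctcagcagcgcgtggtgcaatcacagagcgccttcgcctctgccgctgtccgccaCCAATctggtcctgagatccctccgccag
Msmo1: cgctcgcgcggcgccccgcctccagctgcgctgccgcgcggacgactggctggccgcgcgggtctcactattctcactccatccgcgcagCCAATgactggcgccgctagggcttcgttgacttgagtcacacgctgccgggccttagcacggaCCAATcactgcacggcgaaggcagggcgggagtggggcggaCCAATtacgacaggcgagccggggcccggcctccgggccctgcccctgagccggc

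Of the 16 measured cholesterol genes 13 were in the table, and all 13 held a CCAAT box, read on both strands, in at least 1 listed promoter. It was found in 40.8% of the 4589 measured genes in the table and in 33.9% of all 32841 listed promoters, so it is a common match. The sterol regulatory element, searched as TCACNCCAC on both strands, was in 1 of the 13, Hmgcs1, as TCACCCCAC starting 137 bases before the start. It was in 1.44% of the measured genes and 1.05% of all promoters. These matches are letters in a window and are no evidence of binding.

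In the metallothioneins, capitals mark the core of the metal response element, searched as TGCACNC or TGCGCNC on both strands. Mt1 lies at chr8:94178839-94179088 and Mt2 at chr8:94172368-94172617, both on the plus strand.
Mt1: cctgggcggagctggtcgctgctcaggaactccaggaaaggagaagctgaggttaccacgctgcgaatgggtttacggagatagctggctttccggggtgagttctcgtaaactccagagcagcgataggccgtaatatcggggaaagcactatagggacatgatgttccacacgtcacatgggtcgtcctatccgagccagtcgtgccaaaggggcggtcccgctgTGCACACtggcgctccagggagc
Mt2: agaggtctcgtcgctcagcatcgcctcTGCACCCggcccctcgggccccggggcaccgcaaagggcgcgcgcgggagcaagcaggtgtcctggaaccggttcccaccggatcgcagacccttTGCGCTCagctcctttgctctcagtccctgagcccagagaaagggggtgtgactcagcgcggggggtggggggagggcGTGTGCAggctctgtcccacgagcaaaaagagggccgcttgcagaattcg

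Mt1 held 1 match and Mt2 3. The core was in 8 of 22 glucocorticoid-responsive genes in the table (36.4%), 35.0% of the measured genes and 21.4% of all promoters. The core of the glucocorticoid response element, searched as ACANNNTGT, was in 4 of the 22 (18.2%), 1 of them Mt1, in 4.42% of the measured genes and in 5.84% of all promoters. Cyp51, Idi1, Msmo1 and Mt2 held no match to the sterol or glucocorticoid element searched for their list in this window.

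Genes of red cells were lower in the Ts1Cje pool. Hbb-b2, a beta globin, read 1031.0 and 1194.7 on the euploid arrays and 389.0 and 464.1 on the Ts1Cje arrays (-1.38 ± 0.17). Hba-a1, an alpha globin, had 3806.6 and 3224.8 against 2411.6 and 2042.8 (-0.66 ± 0.17). Alas2, the erythroid enzyme that starts heme synthesis, had 91.4 and 104.6 against 79.0 and 48.5 (-0.62 ± 0.34). None of the 3 overlapped, and all 3 had a negative difference at P0 and P15 as well (Hbb-b2 -0.68 and -1.40, Hba-a1 -0.47 and -1.36, Alas2 -0.70 and -1.67).

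Of the 10 measured genes of red cells and heme synthesis 5 were lower, against 2.19% of all genes. The other pair was Bpgm, which makes the ligand that lowers the oxygen affinity of hemoglobin (-0.69 ± 0.26), and Car2, a carbonic anhydrase also found in oligodendrocytes (-0.65 ± 0.13). The heme enzymes that all cells use had smaller differences, such as Cpox (0.22 ± 0.32, overlapping). In whole tissue, fewer cells of a type and less RNA per cell cannot be told apart. The summed signal of the 3 measured red cell markers was 4929 and 4524.1 in the euploid pool and 2879.6 and 2555.4 in the Ts1Cje pool, and the part of blood content in the other results was not tested.

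**Figure D3:**
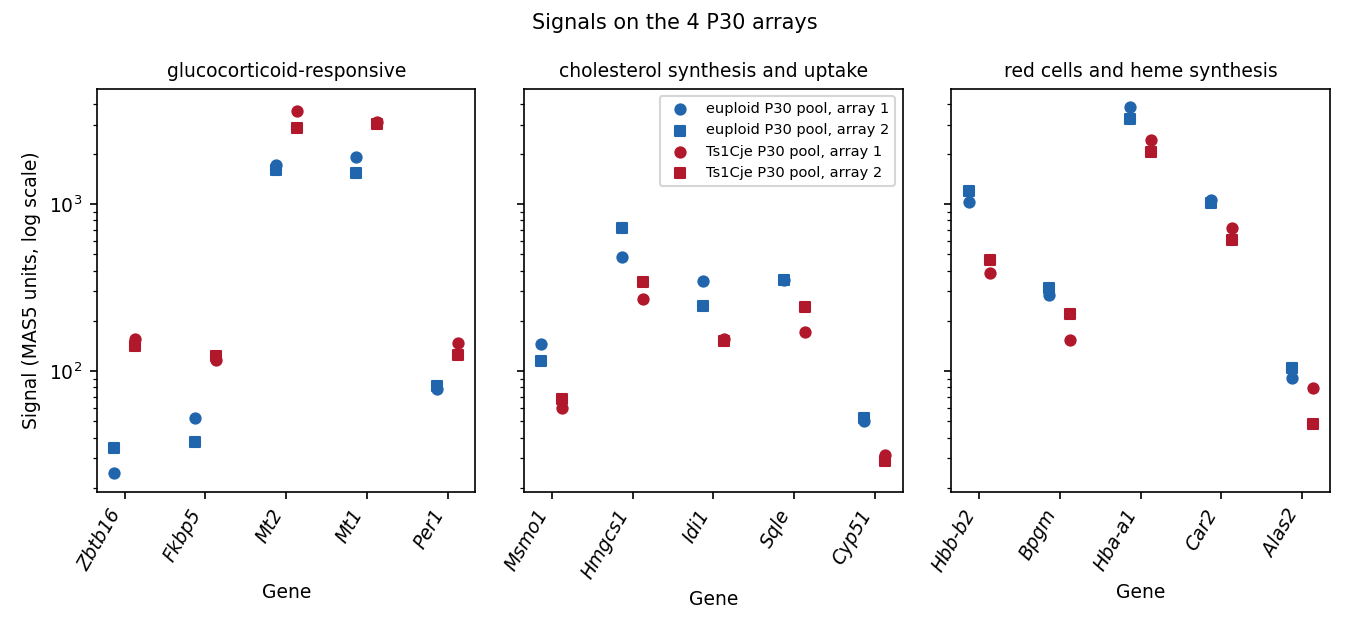
Signal on each of the 4 P30 arrays (MAS5 units, log scale) of the counted members of 3 gene lists. Blue is the euploid pool and red the Ts1Cje pool, and circles and squares are the 2 arrays of a pool. For every gene shown, both red points lie on 1 side of both blue points: above for Zbtb16, Fkbp5, Mt2, Mt1 and Per1, below for the others.

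Myelin and oligodendrocyte genes tended to lower values in the Ts1Cje pool without many large differences. Of 15 measured genes 12 had a negative difference, 7 lay below without overlap (46.7%, against 20.2% of all genes) and 0 above. Ugt8a, which makes the galactolipids of myelin, read 70.7 and 88.2 against 32.3 and 53.0 (-0.86 ± 0.36). With Car2 it was 1 of 2 counted as lower (13.3% of the list, against 2.19% of all genes). Mag, an adhesion protein of the inner myelin layer, had 466.2 and 405.6 against 305.2 and 290.3 (-0.54 ± 0.11). The arrays of both genes were apart. Gsn, an actin-severing protein (-0.54 ± 0.058), and Qdpr, a pteridine reductase (-0.53 ± 0.12), were close behind.

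The brightest structural genes of myelin differed little. Mbp, the basic protein of compact myelin, read 2421.7 and 2406.2 against 2275.6 and 2176.9 (-0.12 ± 0.032). Mobp overlapped (0.086 ± 0.12, with 0.23, -0.13 and -0.24 in other probe sets). The list's median was -0.33 at P30, -0.099 at P0 and 0.16 at P15. The summed signal of the 5 oligodendrocyte markers on the array was 4620.5 and 4310.7 in the euploid pool and 4217.2 and 4147.5 in the Ts1Cje pool.

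Chaperones were slightly lower as a list. Of 26 measured heat shock and chaperone genes 21 had a negative difference and 12 lay below without overlap (46.2%, against 20.2%), with 1 above, Bag3 (0.44 ± 0.031), a cochaperone of selective autophagy. Counted as lower were 2 (7.69%, against 2.19% of all genes), Hsph1, a cytosolic exchange factor of the HSP70 proteins, and Cryab, a small heat shock protein. Hsph1 read 375.0 and 434.9 against 247.9 and 256.7 (-0.67 ± 0.11). Cryab read 74.5 and 83.6 against 52.5 and 48.9 (-0.60 ± 0.092). The brightest members overlapped or differed little, with Hsp90aa1 at -0.072 ± 0.14, Hspa8 at -0.064 ± 0.066 and Hspa4 at -0.12 ± 0.039. The median was -0.16.

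Subunits of oxidative phosphorylation were mostly slightly lower. Of 56 measured genes 43 had a negative difference, 19 lay below without overlap (33.9%, against 20.2%) and 4 above, and none reached the fold limit. The median was -0.11, and it ran from -0.18 to -0.0041 over the pairs of arrays, so that 1 pair was near 0. Ndufb3, a subunit of complex I, had the lowest value at -0.54 ± 0.32, and Atp5pb, of the ATP synthase, the highest at 0.48 ± 0.14. The bright members Cox6a1 (0.075 ± 0.081) and Cyc1 (-0.10 ± 0.15) overlapped. Cytosolic ribosomal proteins had a median of -0.075 over 24 genes. Counted as higher was 1 (4.17%, against 2.15% of all genes), Rps13, at signals of 14.4 and 18.1 against 23.1 and 37.1 (0.71 ± 0.32).

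Genes of the interferon response and of MHC class I, which presents peptides at the cell surface, included 2 that were higher (13.3% of 15, against 2.15% of all genes). B2m, the invariant partner of class I heavy chains, read 213.0 and 274.5 on the euploid arrays and 390.1 and 448.9 on the Ts1Cje arrays (0.78 ± 0.21). H2-K2 read 179.0 and 254.3 against 451.9 and 294.7 (0.76 ± 0.39), and since its probe set can share probes with other class I genes its identity is uncertain. Both were apart. Of 15 measured genes 7 lay above without overlap (46.7%, against 19.2%) and 0 below, with a median of 0.15. Tap1, the peptide transporter, had 0.40 ± 0.22 and Isg15, a ubiquitin-like protein, 0.36 ± 0.16, both without overlap. Rsad2, an antiviral gene induced by interferon, overlapped at -0.27 ± 0.21. The list's median was -0.23 at P0 and 0.33 at P15, so it did not keep 1 direction over the stages.

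Clock and activity genes had small positive medians. Of 17 measured clock genes 9 lay above without overlap (52.9%, against 19.2% of all genes) and 1 below, Csnk1d. With the fold limit 3 were higher (17.6%, against 2.15%): Per1, Per2 and Tef. Per2, a repressor of the clock, read 13.3 and 19.0 against 28.9 and 31.5 (0.76 ± 0.21), and Tef, an output factor, 376.4 and 245.8 against 538.5 and 467.6 (0.71 ± 0.32). Their arrays did not overlap. Cirbp, a cold-inducible RNA-binding protein, followed at 0.56 ± 0.13 and Nr1d1, a nuclear receptor of the clock, at 0.43 ± 0.084. The median was 0.18. Among 17 immediate early genes, which respond within minutes to stimulation, 15 had a positive difference and none was counted. Of the 17, 7 lay above without overlap (41.2%, against 19.2% of all genes) and 2 below (11.8%, against 20.2%). Junb (0.47 ± 0.078), Fos (0.38 ± 0.061) and Dusp1 (0.47 ± 0.13), the last also a member of the glucocorticoid list, lay above without overlap.

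In the IGF system, which drives growth, 1 gene dominated. Igfbp3, a carrier protein of IGF1, read 5.9 and 9.9 on the euploid arrays and 59.5 and 54.8 on the Ts1Cje arrays, a difference of 2.32 ± 0.24 and the largest at P30. Its euploid signals lay under the filter, so the size of the ratio depends on the pseudocount, and its other probe set gave 0.79. Igf1 itself read 154.1 and 193.1 against 256.7 and 210.9 (0.42 ± 0.21), above without overlap. Irs2, an adaptor of the insulin and IGF1 receptors, had 0.54 ± 0.23, and Igf1r overlapped (0.27 ± 0.32).

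Purkinje cell markers were little apart between the pools, while the summed granule cell markers were higher in the Ts1Cje pool. The summed signal of 5 Purkinje cell markers was 7717.4 and 7430.6 in the euploid pool and 7690.9 and 8037.7 in the Ts1Cje pool, and that of 4 granule cell markers 7987.9 and 7476 against 9093.1 and 9742.8. No measured member of the Purkinje list (17 genes, median 0.12) or the mature granule cell list (15 genes, median 0.094) was counted. Zic1, a transcription factor of granule cells and among their brightest genes, held most of the difference in the granule sum, at 3446.0 and 3365.0 against 4463.5 and 4817.1 (0.45 ± 0.058). Neurod1 (322.8 and 364.0 against 413.7 and 423.6) and Cbln1 (2614.7 and 2143.0 against 2661.0 and 2625.7) also lay above without overlap. Thus 3 of the 4 markers lay above and 0 below. In the full granule cell list 4 of 15 lay above (26.7%, against 19.2% of all genes) and 1 below. Gabra6, the receptor subunit that marks mature granule cells, overlapped (0.090 ± 0.14), as did Pcp2 (0.24 ± 0.25) and Calb1 (0.052 ± 0.061) of Purkinje cells. The defining markers of both cell types were bright, and the 5 markers of forebrain, midbrain or brainstem on the array summed to 101.2 and 125 against 127.4 and 110.6.

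Markers of dividing granule cell progenitors were summed to 212.9 and 203.7 on the euploid arrays and 167.1 and 164.1 on the Ts1Cje arrays. Of the 5 markers 3 lay below without overlap. The filter, which takes the mean over all arrays, kept only 2 of the 5, Ccnd1 and Mycn. Both lay below, against 20.2% of all measured genes. Gli1 also lay below but did not pass the filter, so this share does not apply to it. Ccnd1, a cyclin, was the brightest at 157.7 and 143.6 against 117.6 and 122.6. It held most of each sum, so the sums do not show that progenitors were present. Mycn, a growth-promoting transcription factor, read 22.7 and 22.9 against 16.1 and 16.2, and Gli1, a target of hedgehog signalling, 28.0 and 33.0 against 25.8 and 22.0. The other two were near the floor: Atoh1, the defining factor, read 2.7 and 1.5 against 3.1 and 1.6, and Ccnd2 1.8 and 2.7 against 4.5 and 1.7, all under the filter of 20.1. Shh, the mitogen that Purkinje cells release, was counted as lower at 64.5 and 43.2 against 38.4 and 27.9 (-0.62 ± 0.33). It was the 1 gene counted of the 9 measured in its list (11.1%, against 2.19% of all genes). Ptch1, its receptor and target, went the other way at 434.8 and 425.9 against 554.2 and 557.7 (0.37 ± 0.015), without overlap. Among 23 cell division genes 2 dim ones were lower (8.7%, against 2.19% of all genes), Rrm1 (-0.65 ± 0.21) and Cks2 (-0.76 ± 0.41). Of the 23, 15 had a positive difference, and the median was 0.13. Without overlap 5 lay below, near the share of all genes (21.7%, against 20.2%), and 2 above (8.7%, against 19.2%).

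Among interneuron genes and neuropeptides, the widest difference was that of Sst, the peptide somatostatin. It read 71.4 and 75.8 on the euploid arrays and 18.8 and 42.0 on the Ts1Cje arrays (-1.24 ± 0.50). Tac1, which encodes substance P, was also lower on a dim signal (10.1 and 16.5 against 5.9 and 6.7, -0.69 ± 0.27). Cck, the peptide cholecystokinin, lay below without overlap (-0.50 ± 0.090). The enzymes and transporter of GABA itself did not follow: Gad1 (0.090 ± 0.098), Gad2 (0.041 ± 0.074) and Slc32a1 (0.070 ± 0.15) all overlapped. Npy, another peptide of the list, overlapped (0.25 ± 0.22).

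In astrocytes and Bergmann glia the list as a whole was not shifted (24 genes, median -0.065), but single members were. Fabp7, the brain lipid-binding protein of immature astrocytes and Bergmann glia, was lower at 601.3 and 645.1 against 260.9 and 317.5 (-1.10 ± 0.15). It was the brightest of the 15 genes with the lowest values apart from Hbb-b2, and it had 0.20 at P0 and -0.19 at P15. Slc4a4, a bicarbonate transporter, was higher at 181.7 and 169.8 against 249.8 and 357.3 (0.75 ± 0.26). Both were free of overlap. Sparc, a matrix protein, was just under the fold limit (0.57 ± 0.15), and Aqp4, the water channel (-0.33 ± 0.035, with -0.49 in another probe set), and Gfap, the astrocyte filament (-0.38 ± 0.21, with -0.060 in another), lay below without overlap. Gdf10, another gene of the list, lay above without overlap at 343.1 and 313.3 against 436.1 and 436.7 (0.41 ± 0.065). Of the 24 genes 8 lay below without overlap (33.3%, against 20.2% of all genes) and 5 above (20.8%, against 19.2%). The brightest member, Aldoc, overlapped.

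Vessel, choroid plexus and microglia genes added few counted members. Vwf, a clotting factor of endothelium, was higher at 73.2 and 66.4 against 129.4 and 109.0 (0.73 ± 0.14), and had 0.65 at P0 and 1.03 at P15. The median over the 15 measured endothelial genes, Vwf included, was 0.014. Ttr, the transthyretin of choroid plexus, read 671.4 and 644.4 against 928.1 and 808.9 (0.40 ± 0.10) without overlap, and the summed choroid plexus markers were 800.2 and 789 against 1079.7 and 975.9. Among 12 microglial genes, Ly86 alone was counted, as higher (0.59 ± 0.38), which is 8.33% against 2.15% of all genes. The median was 0.016. Cyp1b1, a steroid hydroxylase of the vessel wall and meninges, was the single gene counted in the matrix list (5.88%, against 2.15% of all genes). Its 0.89 ± 0.66 rested on 16.2 and 3.8 against 19.0 and 20.9. Hoxa5, a gene of the caudal hindbrain and spinal cord, was lower at 30.5 and 30.3 against 13.8 and 10.4 (-1.08 ± 0.15), and had -2.83 at P0 and 0.57 at P15. Its list, of regions outside the cerebellum, held as many positive as negative differences (5 each). Besides Hoxa5 as lower, 1 gene of that list was counted as higher. The list's median was -0.034 and its highest value 0.67, so the list as a whole had no direction.

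Genes of synaptic vesicle release had a median of -0.0033 over 21 genes. Of these 2 were counted as higher (9.52%, against 2.15% of all genes) and 1 as lower (4.76%, against 2.19%). Cplx2, a complexin that clamps fusion, was higher at 181.5 and 215.0 against 311.7 and 299.6 (0.62 ± 0.12). Stx1a, a syntaxin of the fusion machinery, was lower (-1.04 ± 0.39) and Rab3b, a vesicle GTPase, higher (0.77 ± 0.16), both at signals under the filter at P30. The bright genes Snap25 (0.094 ± 0.14) and Vamp2 (-0.0033 ± 0.032) overlapped.

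Among the 15 highest genes were several that no list held. Xrn1, an exonuclease of mRNA decay (8.1 and 36.5 against 60.3 and 63.1, 1.54 ± 0.85), and Cyp2c38, a cytochrome P450 (28.4 and 8.8 against 51.8 and 56.9, 1.49 ± 0.65), rested on euploid arrays that disagreed with each other. Cd37, a tetraspanin of lymphocytes (7.7 and 10.8 against 28.4 and 37.8, 1.44 ± 0.24), was more even. Eomes, the transcription factor of unipolar brush cells in the cerebellum, read 26.0 and 39.8 against 75.5 and 83.5 (1.19 ± 0.28). Its other probe set gave 0.78, and its difference was 1.25 at P0. Tbl1x, a part of the corepressor complex of nuclear receptors, read 35.0 and 42.4 against 84.0 and 82.4 (1.03 ± 0.12), with 0.25 in another probe set. P2rx6 (1.19 ± 0.46), Pklr (1.18 ± 0.45), Rag1 (1.06 ± 0.49) and Plg (1.0 ± 0.55) were dim.

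The 15 lowest genes were mostly dim as well. Sh3bp1, a regulator of Rac signalling, was the lowest at 76.3 and 107.5 against 28.0 and 22.6 (-1.68 ± 0.27). Entpd5, a nucleotidase of the endoplasmic reticulum, had 44.9 and 34.1 against 5.2 and 14.7 (-1.67 ± 0.52). Klk6, a secreted protease of oligodendrocytes, had 92.5 and 94.4 against 23.4 and 38.5 (-1.50 ± 0.31). All 3 stood apart, and Klk6 was no member of the myelin list. Gtf2f2, a subunit of a general transcription factor (-1.33 ± 0.060), Spsb2, an adaptor of ubiquitin ligation (-1.13 ± 0.11), Ngef (-1.08 ± 0.20), and Dusp2, a phosphatase of MAP kinases (-1.14 ± 0.43), followed. Prcc (-1.18 ± 0.56) lay between them. In Lin7b (-1.29 ± 0.76), Ctsk (-1.17 ± 0.96), Ifngr1 (-1.15 ± 0.70) and Lamc1 (-1.15 ± 1.03) 1 Ts1Cje array was far below the other, so these values rest on 1 array.

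Whether a P30 difference departed from that of P0 and P15 was tested over pools, while a genotype effect common to all stages was not fitted here. A limma fit to the 6 pool means, with stage, genotype and genotype at P30, compared them over 7453 probe sets. It called 5 (0.0671%) at an adjusted p under 0.05, and 168 had an unadjusted p under 0.05 (2.25%). Without any effect a share of 0.05 would be reached, so small p-values were not in excess over the array. The fit had 1 residual degree of freedom and a prior of 36.2, so its error comes mostly from other probe sets. That degree of freedom is the change of the genotype difference between P0 and P15. The error therefore also holds any true change between these stages, and does not measure variation between like pools. Of the 14 alternatives run, 8 gave no call. In simulated pools the fit recovered the known changes, but false calls were more frequent among its calls than the threshold of 0.05 allows, so the 5 calls are given with these limits.

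Igfbp3 and Zbtb16 were the 2 whose difference moved up. Zbtb16 went from 140.7 and 111.0 at P0 over 101.7 and 78.0 at P15 to 24.4 and 34.6 at P30 in the euploid pools. In the Ts1Cje pools it had 172.5 and 158.8, then 99.7 and 89.6, then 156.2 and 140.8, so the P30 difference came with a low euploid value and a Ts1Cje value near that of P0. Its departure was 1.94 ± 0.39 (limma SE, adjusted p = 0.0494). Igfbp3 declined in the euploid pools from 47.9 and 53.4 over 18.6 and 26.6 to 5.9 and 9.9, and stood at 47.2 and 21.1, 33.0 and 32.4, and 59.5 and 54.8 in the Ts1Cje pools. Its departure was 2.39 ± 0.50 (limma adjusted p = 0.0497).

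Sh3bp1, Sst and Cmip moved down. Sst was at 650.6 and 777.4 in the euploid and 673.0 and 796.2 in the Ts1Cje pool at P0, the age of its highest signal. At P15 it was higher in Ts1Cje, with 70.8 and 73.1 against 199.8 and 245.7, and at P30 lower, which gave a departure of -2.05 ± 0.43 (limma adjusted p = 0.0497). Sh3bp1 turned in the same way, from 15.2 and 23.1 against 41.1 and 86.9 at P15 to 76.3 and 107.5 against 28.0 and 22.6 (-2.63 ± 0.50, limma adjusted p = 0.0423). Cmip, an adaptor protein, was called on its dimmer probe set, with 76.5 and 71.9 against 25.2 and 14.3 at P30 (-1.87 ± 0.39, limma adjusted p = 0.0497). Its brighter probe set gave only -0.15 ± 0.068 at P30, so the probe sets of Cmip disagree. For all 5 genes the adjusted p lay on both sides of 0.05 among the alternatives run, from 0.000231 to 1.0 over the 5.

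Of the gene lists, the same fit called Zbtb16 in the glucocorticoid list, Igfbp3 in the IGF list and Sst in the interneuron and neuropeptide lists. No member of the cholesterol list was called, the smallest limma adjusted p being 0.485, and 4 of its 16 genes had an unadjusted p under 0.05, against 2.25% of all probe sets. In the glucocorticoid list 4 of 26 did. The trisomic, red cell, myelin and chaperone lists had 0 such genes. The lower cholesterol and higher glucocorticoid values at P30 are thus measured values of these pools. None of the single genes of these 2 lists except Zbtb16 was called as different from the earlier stages.

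**Figure D4:**
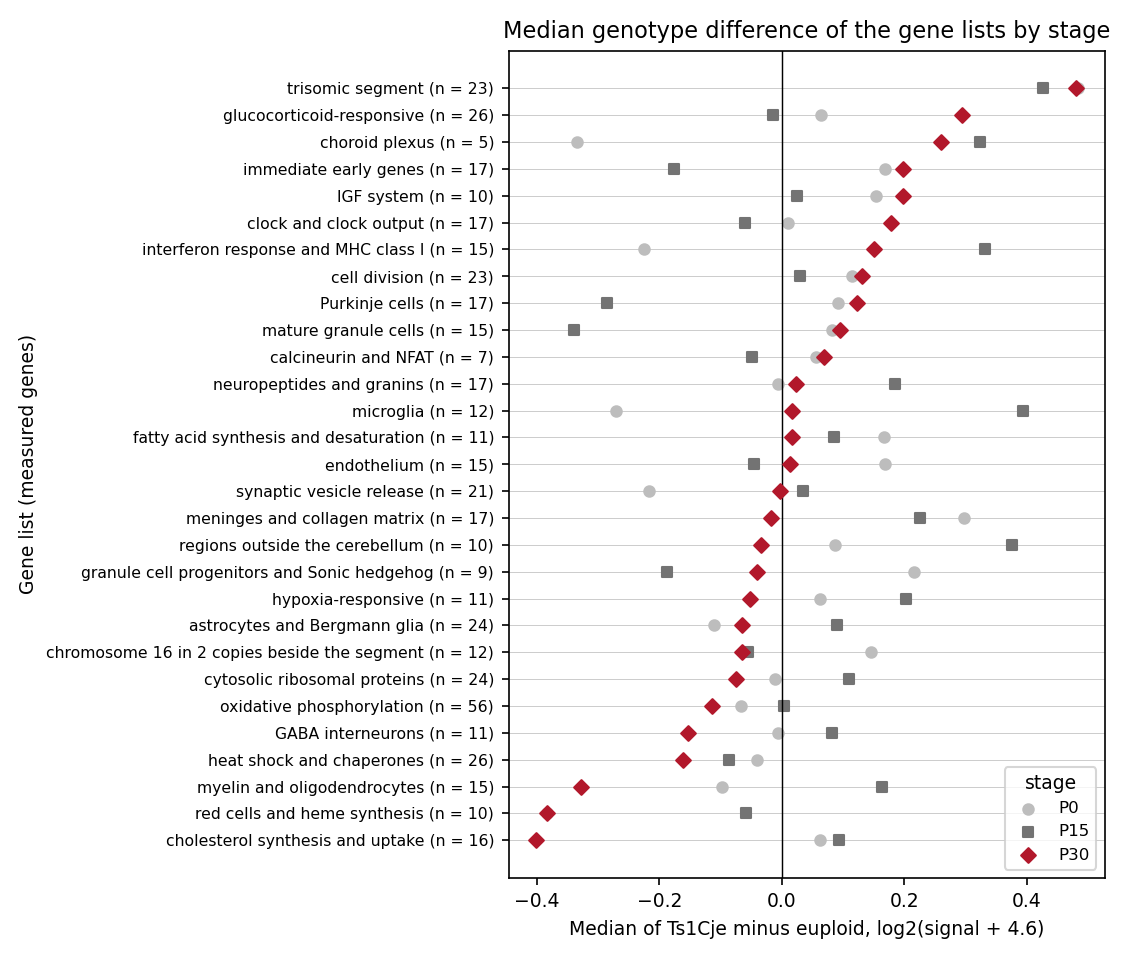
Median genotype difference (Ts1Cje minus euploid, log2(signal + 4.6)) of the 29 gene lists with at least 5 measured genes, sorted by P30. Circles are P0, squares P15 and red diamonds P30, each from 1 pool per genotype. The trisomic segment stays between 0.43 and 0.48 at all stages, while the cholesterol list is at -0.40 at P30 and at 0.062 and 0.094 earlier.

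**Figure D5:**
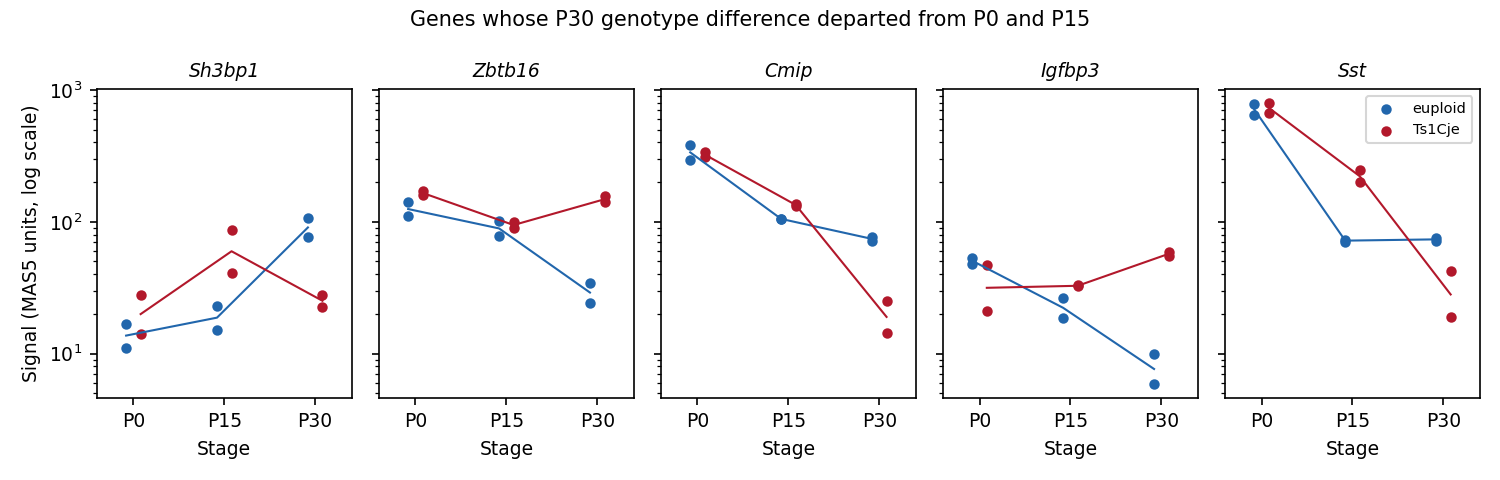
Signal (MAS5 units, log scale) at P0, P15 and P30 of the 5 genes called by the limma fit, with blue for euploid and red for Ts1Cje pools. Points are the 2 arrays of a pool and lines join their geometric means. At P30 Zbtb16 and Igfbp3 are lower in the euploid pool, and Sh3bp1, Cmip and Sst are lower in the Ts1Cje pool.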

How the data were processed

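Total RNA of cerebellum pools was hybridised to Affymetrix mouse arrays. The deposited values are MAS5 signal intensities, per the submitters' processing notes. The version and scaling of MAS5 were not given in the sources used here. Replicates are hybridisations of 1 pool, so the pool counts once. Each genotype and stage had 1 pool, so the p-values do not rest on a spread between like pools. The error of the fit comes from the change of the genotype difference between P0 and P15, shared across probe sets. Any true change between those stages is part of that error. No normalization was added. Signals were log2 transformed after adding 4.6 (the 20th percentile of all values). The filter kept 7453 of 12422 probe sets with a mean signal over the 12 arrays of 20.1 (the 40th percentile) or more, leaving out 66 controls. Of all probe sets 10855 had 1 gene symbol, 396 several and 1237 none, and 10839 matched RefSeq. Each of 5670 genes was read from its brightest probe set.

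The departure of P30 was fitted with limma 3.58.1 (R 4.3.3) to 6 pool means, with Benjamini-Hochberg adjustment over all 7453 probe sets. It was tested on simulated data, where it recovered known changes with more false calls than the threshold allows. Tables and plots used Python 3.11.15, pandas 2.3.3, numpy 2.4.6 and matplotlib 3.10.9. The members and the 31 gene lists were chosen with earlier results of these data known. Named genes were taken from the 15 highest and 15 lowest, all of the trisomic segment and, of each other list, up to 6 with the largest difference and the 3 brightest, plus the 5 with the smallest p each way. Not all of these are described, and Aqp4, Gfap, Calb1, Gabra6, Gad2, Mt3, Sod1 and members that break down a small count were named outside this rule after their values were seen. Promoters (250 bases) came from RefSeq, GRCm38.p6.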

Additional observations from a re-analysis of the deposited data

Results flagged for a closer look

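The limma fit set the P30 genotype difference of each probe set against that of P0 and P15. The departures it called were -2.63 for Sh3bp1, 1.94 for Zbtb16, -1.87 for Cmip, 2.39 for Igfbp3 and -2.05 for Sst, on the log2(signal + 4.6) scale. Each lay past the adjusted threshold in only 4 to 6 of the 13 or 14 alternatives run for it.

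Other named genes are given because both Ts1Cje arrays lay on opposite sides of both euploid arrays at P30 and at an earlier stage, by at least 1.5-fold each time. This opposition itself was not tested apart from the fit above, and each stage is 1 pool per genotype. Among genes higher at P30, Igfbp3 had -0.60 at P0 and 2.32 at P30, and Pklr had -0.98 at P0, -0.77 at P15 and 1.18 at P30. Rab3b had -0.59 at P0 and 0.77 at P30, Ly86 had -0.74 and 0.59, and Rps13 had -0.88 and 0.71 at the same stages. Of the genes lower at P30, Sh3bp1 had 1.47 at P15 and -1.68 at P30, Lin7b 1.28 and -1.29, and Sst 1.56 and -1.24. Ngef had 0.69 at P15 and -1.08 at P30, Gpcpd1 1.31 and -1.004, and Tac1 0.88 and -0.69. Msmo1, of cholesterol synthesis, had 0.59 at P0 and -0.96 at P30.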

How the results depend on the processing

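The counts of 170 higher and 159 lower probe sets depended on how dim signals were treated. They were 39 and 43 with the pseudocount at the median of all values (33.6), 583 and 373 without a filter, and 58 and 71 with the filter at the 60th percentile. Leaving out each array in turn gave 251 to 378 and 242 to 347. The limma count of 5 was 0 without a filter, with the filter at the 60th percentile, with the filter on the P30 arrays, after quantile normalization, after centring arrays on their median and without the eBayes trend. It ranged from 0 to 10 when hybridisations were left out, settings added after seeing the data for single P30 arrays. At an unadjusted p under 0.05, limma gave 57 to 523 probe sets over the alternatives. The trisomic median of 0.48 was 0.42 with the median pseudocount and 0.43 to 0.48 with an array left out. The glucocorticoid median of 0.29 was 0.20 with the median pseudocount, 0.47 with the filter at the 60th percentile, 0.22 with the mean of all probe sets of a gene and 0.25 to 0.30 with an array left out. The cholesterol median of -0.40 was -0.25 with the median pseudocount and -0.54 to -0.34 with an array left out. The median of the interneuron list (-0.15) turned to 0.027 without a filter, 0.045 with the filter at the 60th percentile and ranged from -0.091 to 0.00096 with an array left out, turning without the first euploid array. Over 774 values of named genes under an alternative, 0 turned and 41 moved by more than the hybridisation error. Where a setting keeps other genes or fewer arrays, that alone changes a count, and otherwise the cause was not tested. No paired analysis was possible because shared numbers count hybridisations of a pool, and each genotype and stage had 1 pool.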
